A study of Macaca mulatta with 9 samples.

Results

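The water and glycerol channel gene AQP3 and the carbonic anhydrase gene CA13 were followed over 3 groups of rhesus macaque small antral follicles. Both genes were taken by their symbol in the array's annotation, which gave 1 probe set for AQP3 and 2 for CA13 out of 52766 non-control probe sets, or 2 of 14132 genes with a single symbol. The pair had been selected on differences between the groups measured on these same arrays, so their values are described here without a test.

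The follicles (SAFs) already hold an antrum, a cavity filled with fluid. They came from females that were young adults, early in the follicular phase, at or near menses. Control females ate a standard diet, WSD females a Western-style diet, and WSD+T females the same Western-style diet under chronically raised testosterone, so that no group received testosterone on the standard diet. Each group had 3 biological replicates with 1 one-colour Affymetrix array each. A sample was the whole cellular content of SAFs pooled within 1 female and ovary (3.7 ± 0.3 SAFs per ovary, kind of error not given), with granulosa cells, follicle wall, cumulus cells and oocyte together.

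Aquaporins are membrane channels for water, and AQP3 belongs to the subgroup that also passes glycerol. Outside the ovary AQP3 is best known from the basolateral membrane of kidney collecting duct cells and from skin keratinocytes. Carbonic anhydrases are zinc enzymes that interconvert carbon dioxide and water with bicarbonate and protons, and CA13 is one of the cytosolic forms. In an antral follicle, water and solutes cross the follicle wall and granulosa layer to fill the antrum.

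AQP3 was high on all WSD arrays and low on all others. Its signal (linear MAS5 units, each array scaled to a common trimmed mean) was 229, 297 and 196 on control replicates 1 to 3. It was 1352, 1078 and 1045 on WSD replicates 1 to 3. It was 195, 162 and 336 on WSD+T replicates 1 to 3. The lowest WSD array lay 3.52-fold above the highest control array and 3.11-fold above the highest WSD+T array, whereas the control and WSD+T ranges overlapped.

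The mean AQP3 signal was 241 ± 51.6 (SD, n = 3) in control, 1158 ± 169 in WSD and 231 ± 92.5 in WSD+T. WSD stood 4.81-fold above control and 5.01-fold above WSD+T. On the log2 scale of signal plus 16, WSD minus control was 2.20 (SE 0.27), WSD+T minus WSD was -2.30 (SE 0.27) and WSD+T minus control was -0.10 (SE 0.27). The order was therefore WSD first, with control and WSD+T not separated beyond their spread. In such whole-follicle samples, more cells of a kind and more RNA per cell cannot be told apart.

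CA13 had the same order of groups. Its tested probe set gave 35.8, 16.7 and 15.2 on control replicates 1 to 3. On WSD replicates 1 to 3 it gave 352, 211 and 217. On WSD+T replicates 1 to 3 it gave 27.6, 13.4 and 57.3. The lowest WSD array was 5.89-fold above the highest control and 3.68-fold above the highest WSD+T array, and control and WSD+T overlapped here too.

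Mean CA13 signal was 22.5 ± 11.5 in control, 260 ± 79.5 in WSD and 32.8 ± 22.4 in WSD+T, and the ratio of the WSD mean was 11.5 to control and 7.93 to WSD+T. Control replicates 2 and 3 and WSD+T replicate 2 read below the median signal of their own arrays (22.3, 23.75 and 23.49), and without detection calls these readings were not shown to be above background, so neither ratio is exact. The log2 differences were 2.84 for WSD minus control, -2.56 for WSD+T minus WSD and 0.28 for WSD+T minus control, each with SE 0.36. Since the control mean also lay close to the signal of 21.2 that marked the filter on low values, the size of the first depended on the pseudocount, being 3.53 with a pseudocount of 1 and 1.88 with 64. The second moved likewise, to -3.14 and -1.74.

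The second CA13 probe set was too dim to be tested. It read 9.39, 10.1 and 15.1 in control, 29.9, 14.6 and 25.2 in WSD, and 12.0, 8.85 and 9.68 in WSD+T. Its log2 differences had the same signs as those of the brighter probe set for WSD minus control (0.50) and WSD+T minus WSD (-0.56). WSD replicate 2 overlapped the control arrays, while all WSD arrays were above all WSD+T arrays. Averaged over both probe sets, the CA13 differences were 1.67 and -1.56.

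**Figure D1:**
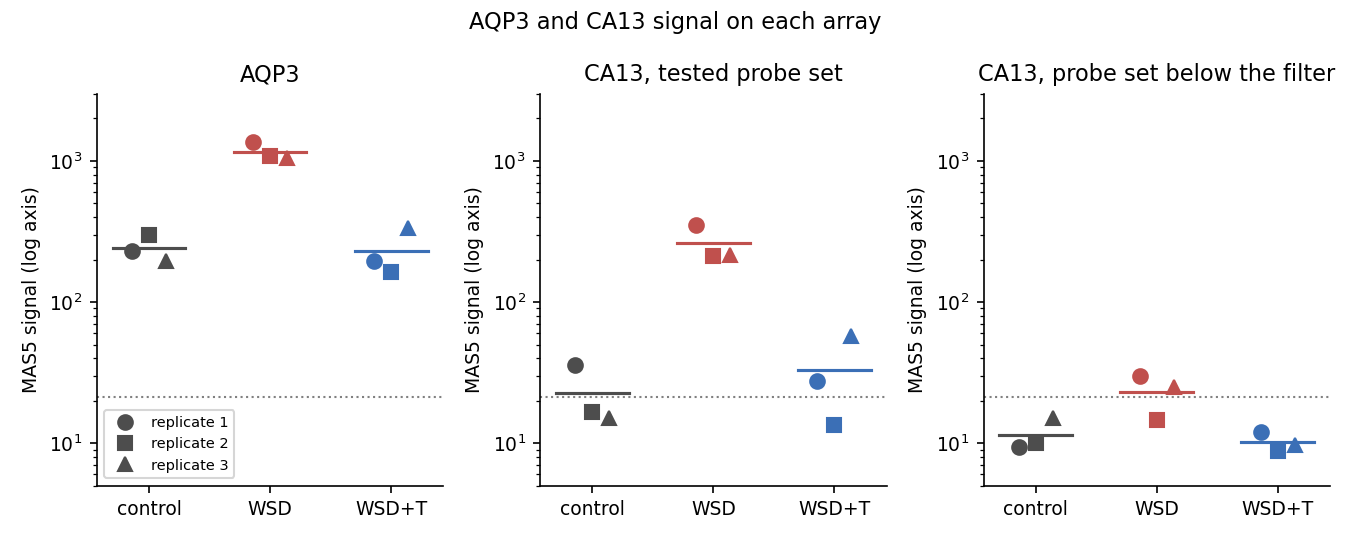
MAS5 signal (log axis) of AQP3, the tested CA13 probe set and the dim CA13 probe set on each array, by group, with symbols for replicates and a line at each group mean. The dotted line is the filter's signal of 21.2; the WSD arrays of AQP3 (1045 to 1352) and of the tested CA13 probe set (211 to 352) lie above all control and WSD+T arrays.

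Within groups, the spread of the genes differed. The coefficient of variation of AQP3 was 21.4% in control, 14.6% in WSD and 40.1% in WSD+T, and that of CA13 was 51.0%, 30.6% and 68.4%. Replicate 1 was the highest WSD array for both genes. Replicate 3 was the highest and replicate 2 the lowest WSD+T array for both, while among the controls the highest array was replicate 2 for AQP3 and replicate 1 for CA13.

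One limma fit to all 9 arrays gave the background for the gene lists below, with calls at an adjusted p (Benjamini-Hochberg) under 0.05 over 26383 probe sets. In WSD vs control 4.78% of probe sets were called higher and 9.68% lower, in WSD+T vs WSD 2.04% and 0.948%, and in WSD+T vs control 0.542% and 1.43%. The tested AQP3 and CA13 probe sets were among those higher in the first and lower in the second, which their selection had fixed. In WSD vs control, the split was 1262 higher and 2555 lower as deposited, but 1498 and 1967 after quantile normalization, 1459 and 1286 with medians centred, and 1714 and 1737 after cyclic loess. The corresponding splits in WSD+T vs WSD were 539 and 250 as deposited, then 303 and 324, 120 and 180, and 287 and 381. The mean within-group variance was 0.0411 in WSD+T, 0.152 in control and 0.330 in WSD, and the fit used 1 spread per probe set for all groups.

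Among the other aquaporins, AQP1 and AQP11 passed the filter on low values, and neither was called in limma in any comparison (unadjusted p under 0.05 in 0 of them). AQP1, a water channel of endothelium and red blood cells, read 1265 ± 88.7 in control, 1011 ± 218 in WSD and 1258 ± 92.5 in WSD+T, and the 3 ranges overlapped. AQP11, an intracellular aquaporin, read 837 ± 295, 766 ± 525 and 730 ± 19.1. The WSD arrays of AQP11 were spread from 301 to 1336 and enclosed both other groups. None of these values followed the order seen for AQP3.

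The other glycerol-passing aquaporins on the array were dim. AQP7 read 10.3 ± 2.64 in control, 6.65 ± 4.23 in WSD and 3.61 ± 0.977 in WSD+T. AQP9, also known from liver and leukocytes, was 0.487, 0.478 and 3.80 in control, 11.2, 30.3 and 0.249 in WSD, and 9.88, 18.7 and 13.0 in WSD+T. It thus exceeded the filter's signal on 1 array, WSD replicate 2. MIP, AQP2, AQP5, AQP6 and AQP8 stayed below it on every array, and AQP4, AQP10, AQP12A and AQP12B were not analysed here.

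Of 6 other tested carbonic anhydrases, CA6 was called lower in WSD and in WSD+T than in control, and the other 5 were not called in any comparison. Over all probe sets, 9.68% were called lower in WSD vs control and 1.43% in WSD+T vs control. CA6, the secreted form known from saliva, read 68.2, 82.3 and 62.0 in control, 20.8, 22.0 and 40.7 in WSD, and 13.5, 23.7 and 11.4 in WSD+T. Both treated groups lay below all control arrays and overlapped each other. The log2 differences from control were -1.01 (SE 0.22, limma adjusted p = 0.0197) in WSD and -1.44 (SE 0.22, limma adjusted p = 0.0219) in WSD+T. WSD replicate 1 and WSD+T replicates 1 and 3 read below the filter's signal of 21.2, so neither difference is exact. With a pseudocount of 1 they were -1.37 in WSD and -2.12 in WSD+T, and with 64 they were -0.56 and -0.75. In WSD vs control the call was lost under median centring and without control replicate 2 or WSD replicate 1 (limma adjusted p = 0.0557, 0.0682 and 0.0589). The WSD+T call was lost without control replicate 1, 2 or 3 (0.0549, 0.0748 and 0.0602) and without WSD+T replicate 1 or 3 (0.138 and 0.134).

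The membrane-bound, hypoxia-inducible CA9 read 238 ± 47.8 in control, 169 ± 66.5 in WSD and 137 ± 13.7 in WSD+T (WSD+T minus control -0.72, limma adjusted p = 0.177). CA10, a related protein without catalytic activity, read 228 ± 115, 247 ± 95.7 and 461 ± 8.69 by its brightest probe set. All 3 WSD+T arrays of CA10 exceeded the other 6, but the difference from WSD did not pass (0.92, limma adjusted p = 0.171). WSD+T minus control was 1.06 for this probe set. Both other probe sets of CA10 were below the filter and had -0.16 and 0.13, with overlapping ranges. The brightest probe sets of CA4, CA11 and CA12 had log2 differences between -0.40 and 0.39 in the 3 comparisons. The probe sets of CA11 ran from -0.07 to 0.71 for WSD+T minus control and from 0.10 to 1.04 for WSD+T minus WSD, without a call. Both highest values came from a dimmer probe set (limma adjusted p = 0.377 and 0.193). CA5A, CA5B, CA7, CA8 and CA14 were below the filter, and CA1, CA2 and CA3 were not analysed here.

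**Figure D2:**
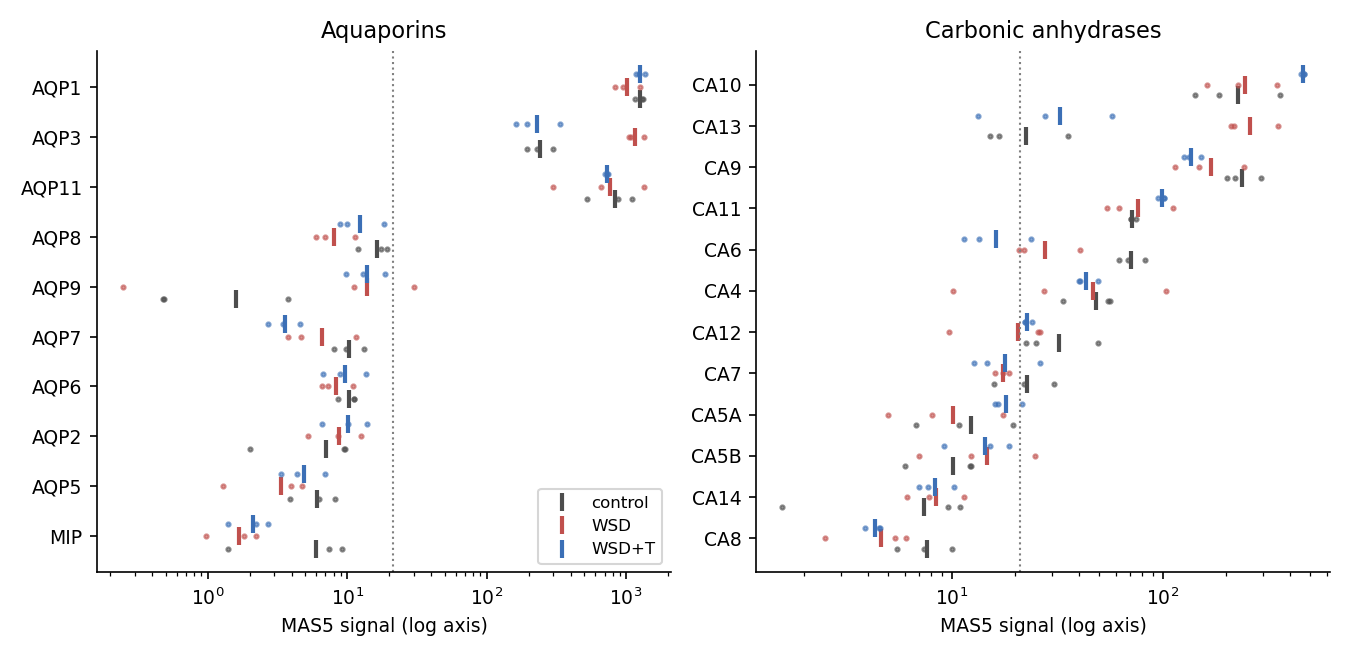
MAS5 signal (log axis) of the aquaporins and carbonic anhydrases, 1 probe set per gene, with a dot per array and a bar at each group mean. Rows are sorted by their highest group mean, which orders the display only, since signals of different probe sets cannot be compared; the WSD dots of AQP3 and CA13 stand apart from control and WSD+T, and the dotted line is the filter's signal of 21.2.

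Genes that handle bicarbonate, protons, salt, glycerol, osmotic balance and cell junctions formed 8 lists with both families, each gene by its brightest probe set, leaving 64 tested genes besides AQP3 and CA13. In WSD vs control 2 of 64 were higher (3.12%) and 4 lower (6.25%), against 4.78% and 9.68% of all probe sets. In WSD+T vs WSD, where AQP3 and CA13 were low again, limma called 0 of 64, and 6 had an unadjusted p under 0.05 (9.38%, against 20.9% of all probe sets). WSD+T vs control had 1 higher and 1 lower (1.56% each, against 0.542% and 1.43%). The median log2 differences of the 64 genes were 0.05, 0.11 and 0.07 in these comparisons, against -0.08, 0.09 and -0.01 over all tested probe sets. Where WSD was compared, none of these shares was above the background, and with so few calls the called shares lay near it. The lists count only the brightest probe set of each gene, whereas the background counts every tested probe set.

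Of the bicarbonate transporters, 1 of 4 tested genes fell in WSD vs control, against 9.68% of all probe sets. SLC4A3, a chloride-bicarbonate exchanger, read 184, 267 and 198 in control, 70.3, 80.6 and 137 in WSD, and 101, 116 and 107 in WSD+T, with both diet groups below all controls. WSD minus control was -1.09 (SE 0.23, limma adjusted p = 0.0188), and the call was lost under median centring (0.0530), without control replicate 2 (0.0630) and without WSD replicate 1 (0.0534). WSD+T minus control was -0.89 (limma adjusted p = 0.0916). The sodium-bicarbonate cotransporter SLC4A7 and the exchanger SLC4A2 differed from control by 0.10 and -0.23 in WSD (limma adjusted p = 0.590 and 0.348).

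Among proton exchangers and lactate carriers, limma called none of 8 in WSD vs control, and 2 of 8 had an unadjusted p under 0.05, against 31.1% of all probe sets. The lactate exporter SLC16A3 read 74.8, 32.9 and 42.9 in control, 120, 247 and 63.0 in WSD, and 121, 81.8 and 97.5 in WSD+T (WSD minus control 1.15, limma adjusted p = 0.0971; WSD+T minus control 0.85, limma adjusted p = 0.301). The WSD arrays overlapped the control range, and neither difference passed the test.

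Genes that release or use glycerol, the second cargo of AQP3, had no call among 12 tested in any comparison in limma, with 1 unadjusted p under 0.05 in WSD vs control and 0 in each of the others, against 31.1% of all probe sets in WSD vs control, 19.2% in WSD+T vs control and 20.9% in WSD+T vs WSD. The triglyceride lipase PNPLA2 read 2579 ± 197 in control, 2590 ± 372 in WSD and 2227 ± 43.2 in WSD+T. GPAM, which starts glycerolipid synthesis from glycerol phosphate, had a WSD minus control of -0.93 (limma adjusted p = 0.0702). The glycerol phosphate dehydrogenases GPD1L and GPD2 had -0.29 and -0.27 (limma adjusted p = 0.242 and 0.253).

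Of 12 tested genes of cell volume and osmotic response, 1 was called, as higher in WSD vs control and in WSD+T vs control. Over all probe sets, 4.78% and 0.542% were called higher there. SLC6A6, the taurine transporter, read 525, 309 and 225 in control, 1509, 2495 and 1007 in WSD, and 1486, 986 and 1370 in WSD+T. Its signal was above all controls in both diet groups, with no separation between those. WSD minus control was 2.18 (SE 0.38, limma adjusted p = 0.0101), and 2 other tested probe sets of the gene had the same direction without a call (1.49 and 1.05). WSD+T minus control was 1.87 (SE 0.38, limma adjusted p = 0.0481), and this second call was lost in 13 of 18 alternative settings, among them those without control replicate 1, 2 or 3 (0.0511, 0.131 and 0.143), WSD replicate 1 (0.0726) or WSD+T replicate 1, 2 or 3 (0.219, 0.106 and 0.198). The osmotic transcription factor NFAT5 differed by -0.24 in WSD (limma adjusted p = 0.326), and SLC5A3, a transporter of the osmolyte myo-inositol, by -1.58 (limma adjusted p = 0.0557).

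In sodium and chloride transport, 1 gene rose and 1 fell among 8 tested in WSD vs control, against 4.78% and 9.68% of all probe sets. Both genes encode subunits of the epithelial sodium channel. SCNN1A, its alpha subunit, read 18.8, 14.5 and 29.3 in control, 76.9, 55.6 and 66.9 in WSD, and 27.6, 20.4 and 39.6 in WSD+T. The WSD arrays were above all others and the remaining groups overlapped, the same order of groups as for AQP3 and CA13. WSD minus control was 1.17 (SE 0.21, limma adjusted p = 0.0110) and WSD+T minus WSD was -0.88 (SE 0.21, limma adjusted p = 0.0621). Control replicates 1 and 2 and WSD+T replicate 2 read below the filter's signal of 21.2, so neither difference is exact. WSD minus control was 1.67 with a pseudocount of 1 and 0.62 with 64. Both other probe sets of SCNN1A were below the filter, with WSD minus control of -0.02 and 0.21.

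SCNN1G, the gamma subunit, read 45.4, 41.0 and 107 in control, 12.3, 11.1 and 7.06 in WSD, and 9.27, 17.4 and 21.0 in WSD+T. It was called lower in WSD vs control (-1.54, SE 0.29, limma adjusted p = 0.0131), and WSD+T minus control was -1.26 (limma adjusted p = 0.0684). All its WSD and WSD+T arrays were below the filter's signal of 21.2. The probe set thus passed the filter only through its control arrays, and neither difference is exact. The sodium pump subunit ATP1B1 stood between 3987 and 4529 on all 9 arrays, and the chloride channel CFTR read 6.83 or less.

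Of 12 tested tight junction genes, which seal the route between cells, 1 fell in WSD vs control, against 9.68% of all probe sets. The junction protein cingulin, CGN, read 347, 483 and 586 in control, 219, 111 and 99.6 in WSD, and 195, 250 and 224 in WSD+T. Its WSD minus control was -1.66 (SE 0.29, limma adjusted p = 0.0101) and its WSD+T minus control -1.01 (limma adjusted p = 0.119). The other probe set of CGN was below the filter and had -0.12 and -0.09. The scaffold TJP1 differed by -0.13 and the strand protein CLDN1 by -1.18 in WSD (limma adjusted p = 0.558 and 0.179), with CLDN1 read at 202 to 1220 over the control arrays alone.

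**Figure D3:**
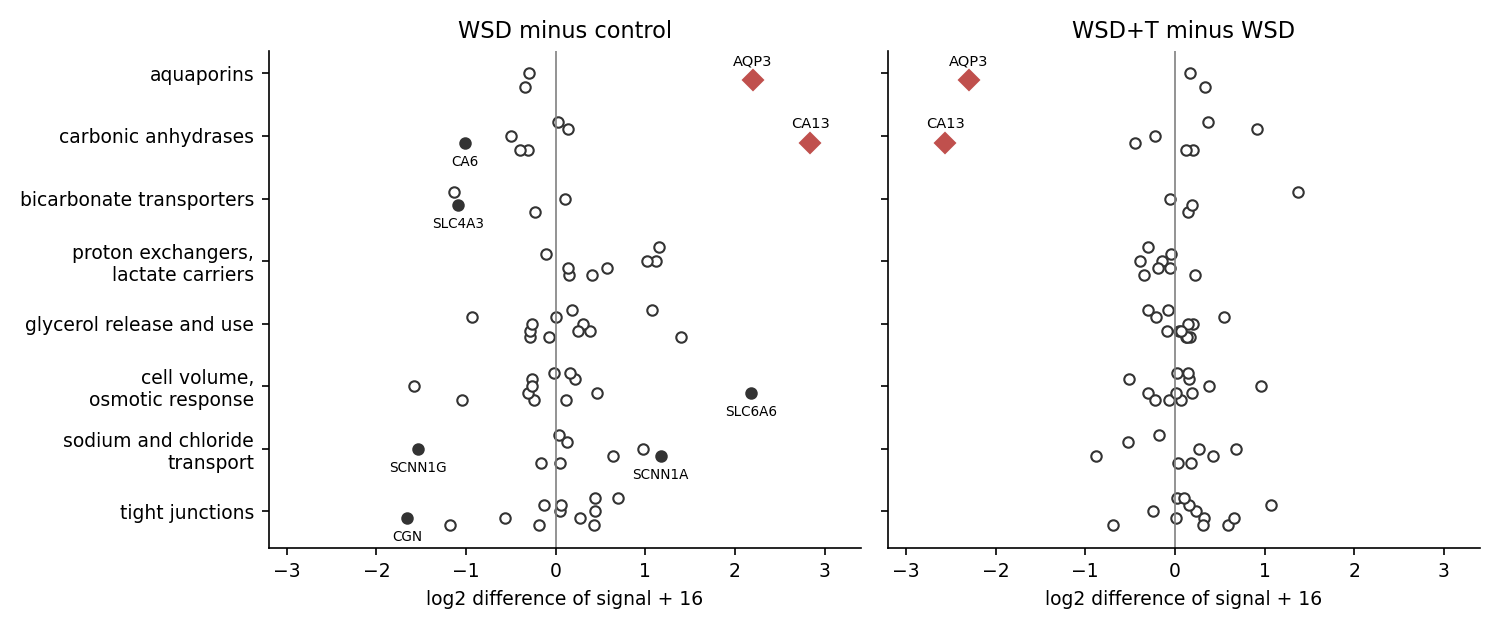
Log2 differences of signal plus 16 for the tested genes of 8 lists, WSD minus control (left) and WSD+T minus WSD (right). Diamonds are AQP3 and CA13, shown as a description, filled circles are genes with a limma adjusted p under 0.05 and open circles the rest; the right panel has no filled circle.

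Markers of the cell types that the samples could hold were read on the same arrays. The summed signal of 7 granulosa markers was 6551 to 8802 in control, 3431 to 5864 in WSD and 4142 to 4207 in WSD+T, and members of the list moved in opposite directions. The inhibin subunits INHA and INHBB fell in WSD (-2.09 and -2.31, limma adjusted p = 0.0173 and 0.00323) and in WSD+T (-2.41 and -2.05, limma adjusted p = 0.0356 and 0.0152). INHBB read 106 to 158 in control, 5.7 to 29.9 in WSD and 19.5 to 21.5 in WSD+T. Its mean log2 values in WSD and WSD+T (4.94 and 5.2) lay below the filter's 5.22, a signal of 21.2. INHBB thus passed the filter through its control arrays, and neither of its differences is exact. INHBA, the shared subunit of activin A and inhibin A, rose in WSD (0.51, limma adjusted p = 0.0448), from 1353 to 1453 over the control arrays to 1760 to 2186, and read 1401 to 1661 in WSD+T. Its WSD arrays were above all others, as for AQP3 and CA13.

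The sum of 3 theca markers was 2756 to 3893 in control, 2652 to 4407 in WSD and 2710 to 2908 in WSD+T, most of it from STAR, which carries cholesterol into mitochondria. The androgen-forming enzyme CYP17A1 and the hedgehog receptor PTCH1 fell in WSD (-1.67 and -1.96, limma adjusted p = 0.00715 and 0.00732), and PTCH1 also in WSD+T (-1.54, limma adjusted p = 0.0460). Of 6 oocyte markers, with sums of 501 to 1042, 988 to 1477 and 1167 to 1335, 1 rose in WSD vs control and 1 in WSD+T vs control. Over all probe sets, 4.78% and 0.542% were called higher there. The egg coat gene ZP4 read 293 to 532 in control, 728 to 868 in WSD and 287 to 478 in WSD+T (WSD minus control 1.04, limma adjusted p = 0.0310), again with the WSD arrays above all others. FIGLA, an oocyte transcription factor, rose in WSD+T vs control (1.93, limma adjusted p = 0.0380). Unlike ZP4, the other oocyte markers BMP15, ZP3, FIGLA, NLRP5 and DAZL had their highest group mean in WSD+T. NLRP5 had a WSD minus control of -0.41 (limma adjusted p = 0.625). Most of the summed oocyte signal on the WSD arrays came from ZP4.

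Myeloid markers (8 of 10 listed) summed to 1817 to 10440 in control, 848 to 22695 in WSD and 15494 to 17332 in WSD+T, with 0 of 8 called in limma in any comparison (unadjusted p under 0.05 for 1 of 8, LYZ, in WSD+T vs control and for none in the others) and wide spread in control and WSD. Over all probe sets, an unadjusted p under 0.05 was found in limma for 31.1% in WSD vs control, 19.2% in WSD+T vs control and 20.9% in WSD+T vs WSD. WSD replicates 1 to 3 had myeloid sums of 16238, 22695 and 848. Endothelial markers (8 of 8) summed to 1224 to 1772, 632 to 3898 and 2172 to 2472. Smooth muscle markers (3 of 5) summed to 1717 to 2285, 2794 to 3415 and 3146 to 3471, and of these the actin-binding protein gene TAGLN rose in WSD (0.93, limma adjusted p = 0.0342).

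Surface epithelium markers (8 of 8) summed to 721 to 964 in control, 1028 to 3244 in WSD and 881 to 1124 in WSD+T. Of 4 tested, KRT8, a keratin of simple epithelia, rose in WSD (1.64, SE 0.27, limma adjusted p = 0.00848), where 4.78% of all probe sets were called higher. KRT8 went from 351 ± 53.5 in control to 1164 ± 368 in WSD, and was 563 ± 119 in WSD+T. Its partner keratin KRT18 read 64.3 ± 4.37 in control and 45.5 ± 20.4 in WSD (-0.43, limma adjusted p = 0.217). KRT19 and EPCAM were high on WSD replicate 3 (996 and 822) and read at most 290 and 216 on the other 8 arrays. The adhesion protein CDH1 and mesothelin, MSLN, read at most 8.88 and 8.89 on any array.

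The sum of 4 red blood cell markers was 667 to 980 in control, 644 to 737 in WSD and 307 to 409 in WSD+T, most of it from the beta globin gene HBB. HBB read 695 ± 159, 612 ± 50.2 and 260 ± 53.2 and fell in WSD+T against control and against WSD (-1.36 and -1.20, limma adjusted p = 0.0218 and 0.0303). The alpha globin gene HBA fell in WSD (-0.53, limma adjusted p = 0.0310), from 83.0 ± 5.66 to 52.6 ± 1.63. ALAS2, which starts heme synthesis in red cells, read 21.9 ± 2.40 in control and 31.9 ± 5.14 in WSD+T (0.33, limma adjusted p = 0.234). The part of any of these cell types in the AQP3 and CA13 values was not tested.

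**Figure D4:**
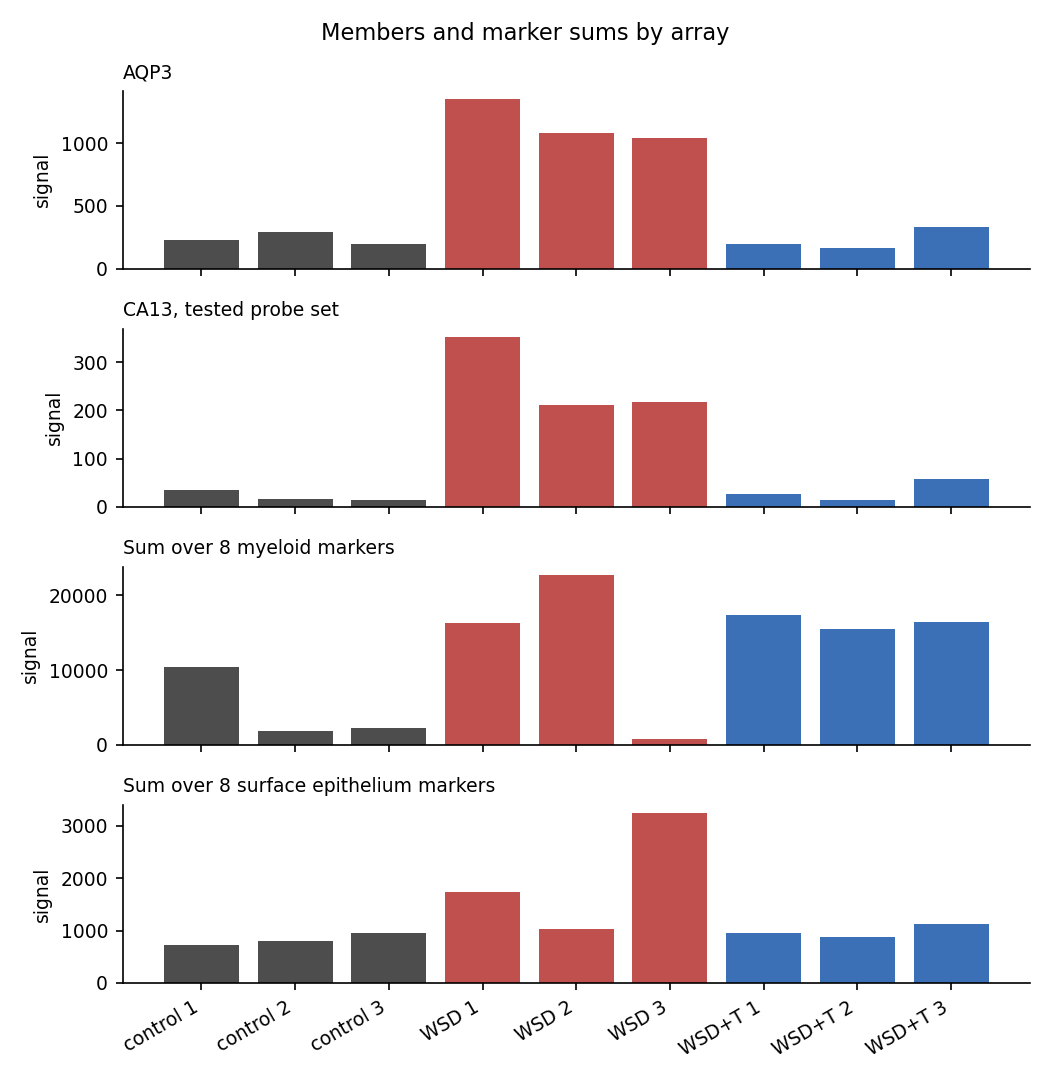
Signal of AQP3 and of the tested CA13 probe set, and summed signal of myeloid and surface epithelium markers, on each of 9 arrays (linear axes from 0, colours by group). AQP3 is 1045 to 1352 on the WSD arrays, whose myeloid sums run from 848 to 22695 and surface epithelium sums from 1028 to 3244.

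Genes next to AQP3 and CA13 in the rhesus assembly T2T-MMU8v2.0 were read from a RefSeq table, used for gene order only. AQP3 lies between NOL6, a ribosome biogenesis gene, and AQP7, followed by NFX1 and CHMP5, with UBE2R2 beyond NOL6. CA13 lies between RBIS, with E2F5 beyond it, and the carbonic anhydrase genes CA1, CA3 and CA2. The 6 neighbours tested were not called in any of 3 comparisons in limma (adjusted p from 0.216 to 0.997, 1 value with an unadjusted p under 0.05). NOL6 read 439 ± 54.1 in control and 466 ± 177 in WSD, and RBIS 2990 ± 488 and 3367 ± 413. Between WSD and control these genes thus did not differ beyond their spread. In WSD+T, NOL6 read 283 to 346, below all its control arrays (378 to 482), without a call. CHMP5 held that unadjusted p (WSD+T minus WSD 0.29, limma adjusted p = 0.216). It read 2124.1 to 2278.2 in control, 1858.5 to 2016.7 in WSD and 2247.7 to 2497.6 in WSD+T, with the WSD arrays below all others.

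The genes whose values ran most like AQP3 and CA13 were found by Pearson's r over the 9 arrays among 10001 other genes, as a description, since the WSD arrays stand apart from the other 6 and r mostly reflects that gap. CA13 was second in likeness to AQP3 (r = 0.971), and AQP3 was among the 5 genes most like CA13. First for AQP3 was ENO2, a glycolytic enolase (r = 0.989), which read 1095 to 1261 in control, 1728 to 1836 in WSD and 1161 to 1284 in WSD+T. The kinases CSNK1A1 (r = 0.968) and PRKCI (r = 0.957) and the nucleolar protein gene NIFK (r = 0.955) followed. Their log2 differences between WSD and control were 0.57 to 0.69, well under the 2.20 of AQP3.

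For CA13 the most alike genes were PBDC1 (r = 0.981), the immediate early gene ARC (r = 0.977), the autophagy gene TP53INP2 (r = 0.977) and the splicing factor SRSF5 (r = 0.974). ARC read 33.2, 11.2 and 23.5 in control, 166, 124 and 89.3 in WSD, and 21.1, 19.5 and 46.5 in WSD+T. TP53INP2 had log2 differences of 1.73 for WSD minus control and -1.23 for WSD+T minus WSD.

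The most opposed to AQP3 were the helicase RECQL5 (r = -0.992), DERPC (r = -0.980) and the hyaluronan synthase HAS3 (r = -0.974). HAS3 read 1393 to 1549 in control, 908 to 1032 in WSD and 1455 to 1586 in WSD+T. TAF1L, COLQ and the zinc finger gene ZNF333 were the most opposed to CA13 (r = -0.986, -0.985 and -0.985).

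**Figure D5:**
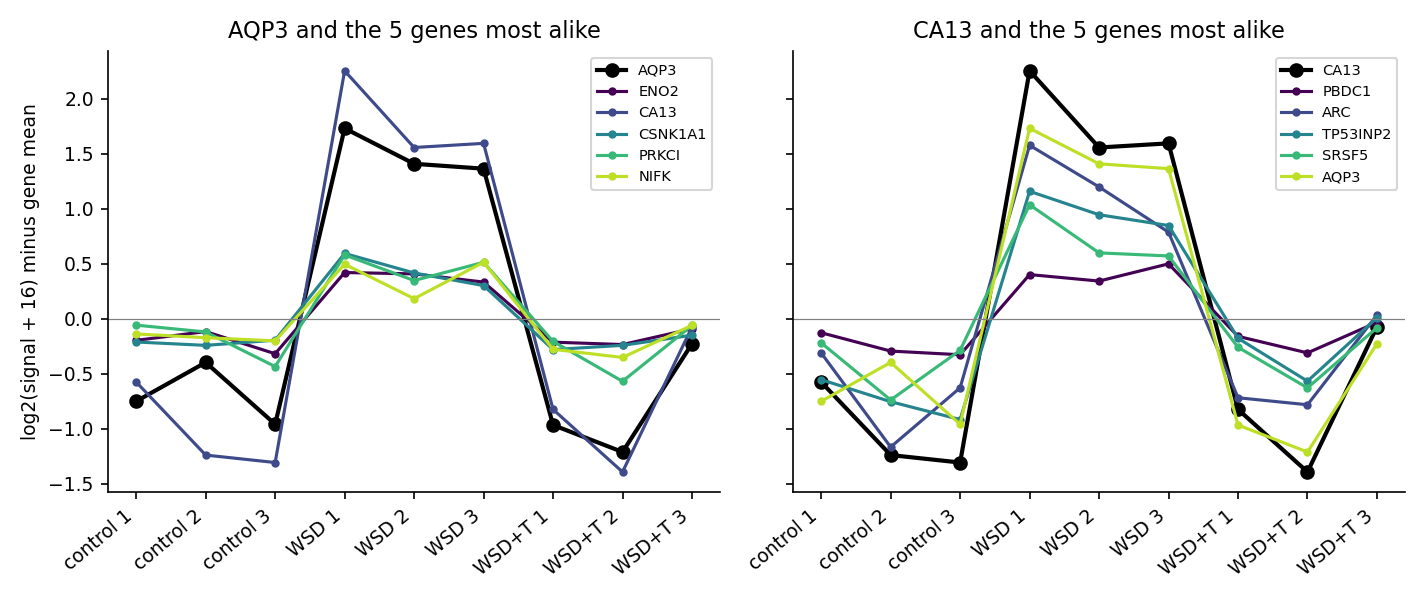
Log2 of signal plus 16, minus each gene's mean over the 9 arrays, for AQP3 (left) and CA13 (right) in black and the 5 most alike genes in colour, by array. All lines are above 0 on the WSD arrays, and AQP3 and CA13 span a wider range than ENO2, CSNK1A1, PRKCI, NIFK and PBDC1.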

How the data were processed

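The authors deposited intensity values on a linear scale, one per probe set and array. Per the submitters' processing notes the signals came from MAS5, with no version given. Amplification used a NuGEN kit that primes near the 3' end, per the labels' protocols. The mean without the outer 2% of probe sets was 200.01 on all 9 arrays, and array medians ran from 15.9 to 23.75. Detection calls were not used. A genome build is not given in the sources used here. Precision is limited by the number of arrays.

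Controls (99 of 52865 probe sets) were left out. Values were taken as log2 of signal plus 16, which understates changes of dim genes, and testing was restricted to probe sets at or above the median of the mean values (5.22, a signal of 21.2). limma 3.58.1 (R 4.3.3; functions lmFit and eBayes; residual df 6, prior df 2.69) estimated group means from the 9 arrays jointly, two-sided, each comparison adjusted by Benjamini-Hochberg over 26383 probe sets and no further normalization. The pipeline was tested on simulated data. Replicates are labelled biological; p-values measure the spread between these samples. The alternatives were other pseudocounts, scalings and filters, a replicate block, the compared arrays alone and leaving out each array.

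AQP3, CA13 and the lists were chosen with earlier results of these data known. Named genes were both members, all measured aquaporins and carbonic anhydrases, up to 4 called genes per list and comparison, and the 5 most and 3 least alike genes; other list genes, markers and neighbours were named after their values were seen. Symbols came from the array annotation, and a gene of a list stands by its probe set of highest mean. Plots used Python 3.11.15 and matplotlib 3.10.9.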

Additional observations from a re-analysis of the deposited data

How the results depend on the processing

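The log2 differences of AQP3 moved by less than the spread between replicates under all alternatives run: 2.01 to 2.36 for WSD vs control, -2.59 to -2.09 for WSD+T vs WSD and -0.39 to 0.10 for WSD+T vs control. Those of CA13 did so too, except with a pseudocount of 1 (3.53 for WSD vs control, -3.14 for WSD+T vs WSD), a pseudocount of 64 (1.88 and -1.74) and both probe sets averaged (1.67 and -1.56). Leaving out 1 array gave 2.62 to 3.08, -2.91 to -2.25 and, for WSD+T vs control, -0.07 to 0.59. Median centring moved the median log2 difference of all tested probe sets in WSD vs control from -0.08 to 0.05 and in WSD+T vs WSD from 0.09 to -0.05.

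Counts of called probe sets depended on the arrays included. For WSD vs control 3817 became 2220 with the replicate block, 913 with the 6 arrays compared alone (fewer samples) and 2544 with WSD+T replicates 1 and 3 averaged, a setting chosen after seeing the data because their correlation was the highest of all replicate pairs. Leaving out 1 array gave 1735 (control replicate 2) to 6628 (WSD replicate 3). For WSD+T vs control 520 became 3 with the block, 3245 and 0 in these settings, and 0 (WSD+T replicate 1 or 3) to 1777 (WSD replicate 3). For WSD+T vs WSD 789 became 300 under median centring, 1 with the block, 9 and 0, and 0 (WSD+T replicate 1 or 2) to 1548 (WSD replicate 2). At these counts of 0 in limma, 3006 to 3151 (WSD+T vs control) and 3712 to 3935 (WSD+T vs WSD) probe sets still had an unadjusted p under 0.05. The cause was not tested.

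Of the 64 listed genes, 6 were called in WSD vs control, 2 with the 6 arrays alone and 4 to 17 (without WSD replicate 3) leaving out 1 array. For WSD+T vs control 2 became 1 with a pseudocount of 1, median centring or cyclic loess, 0 with the block or WSD+T replicates averaged (13 with an unadjusted p under 0.05 in each), 15 with the 6 arrays alone and 0 to 6 leaving out 1. For WSD+T vs WSD 0 became 1 under quantile normalization and cyclic loess, and 0 to 2 leaving out 1. With the 6 arrays alone, CA6, SLC4A3, SCNN1G and CGN missed the threshold in WSD vs control (limma adjusted p = 0.0627, 0.0774, 0.0542 and 0.0508). The block ended the WSD+T vs control calls of CA6 and SLC6A6 (limma adjusted p = 0.0714 and 0.0926). Residual correlations of same-numbered arrays ran from -0.302 to 0.190. They were not compared with those of differently numbered arrays, so whether the replicate numbers pair the samples was not tested.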
